A study of Mus musculus with 4 samples.

Results

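Transcripts of glycolytic enzymes were measured in the autopod, the distal limb bud that becomes hand or foot, of Hox13dKO and wild-type mouse embryos at E11.25. The enzymes were set by a list of 10 genes: Hk2, Gpi1, Pfkl, Pfkp, Aldoa, Tpi1, Pgk1, Pgam1, Eno1 and Ldha. Every probe set that the platform annotation assigned to exactly 1 of these symbols was taken, which gave 20 of the 45101 probe sets and 8 of the 13072 genes tested. Gpi1 (glucose-6-phosphate isomerase) and Eno1 (enolase) had no such probe set and were not analysed here. The Hox13dKO group comprised 2 samples of embryos homozygous for a Hoxa13 null allele (Hoxa13-/-) and for a deletion of Hoxd11, Hoxd12 and Hoxd13 (HoxDdel/del), and the control group 2 samples of wild-type embryos. All were C57BL/6, and each sample combined tissue of fore- and hindlimb buds, the Hoxd13-expressing region in wild type. Hox13dKO embryos lack Hoxd13 (5.8 and 9.6 units, against 14540 and 16117 in wild type). Whether their tissue matched that region was not tested. Replicates are labelled as biological, but the number of embryos per sample is not stated, so p-values measure the spread between these samples.

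Glycolysis turns glucose into pyruvate in the cytosol and yields ATP without oxygen. Lactate dehydrogenase then reduces pyruvate to lactate and returns the NAD+ that the pathway consumes. Many glycolytic genes are direct targets of hypoxia-inducible factor (HIF), which binds a short core sequence in their promoters.

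Each array had been scaled by the authors to a common mean, and median signals were 65.8 to 85.7 units. The 4 targeted genes were all lower in Hox13dKO and past the threshold, with summed signals of 412 and 555 units against 18423 and 21495 in wild type. Of 10 limb mesenchyme markers, which include Hoxa13 and Hoxd13, 7 had negative differences and the median was -0.17. Tbx5 differed by 1.02, with both Hox13dKO arrays above both wild-type arrays. Prrx1 read 7008 to 11938 units over the 4 arrays and differed by 0.48, Msx1 by -0.35 and Hand2 by -0.53. None of these passed the threshold. Of the 10 markers, 3 were higher on both Hox13dKO arrays, as were 16.3% of all probe sets tested, and 4 lower. The ratio of 5′ to 3′ actin signal, a sign of RNA integrity, was 0.473 in wild type replicate 1 and 0.728 to 0.771 on the other arrays, while that of Gapdh was 1.16 to 1.25. The part of RNA integrity in the results was not tested.

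All 8 measured enzymes had higher signals on both Hox13dKO arrays than on either wild-type array, and the median log2 difference was 0.72, against -0.01 over all 27022 probe sets tested. Both Hox13dKO arrays lay above both wild-type arrays in 16.3% of all probe sets tested. By brightest probe set the fold ranged from 1.29 for Pgam1 to 2.22 for Pfkp. With 2 arrays per group, 0 of the 8 passed an adjusted p of 0.05 in limma, a rule that called 0.207% of all probe sets and, counting only those higher in Hox13dKO, 0.115%. At an unadjusted p under 0.05, 8 of 8 were higher (p from 0.000234 to 0.0198), against 3.80% of all probe sets. The list was chosen with earlier results of these data known, so these shares are no independent test of it. In bulk tissue, a change in the share of cells that hold a transcript and a change in its amount per cell cannot be told apart.

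**Figure D1:**
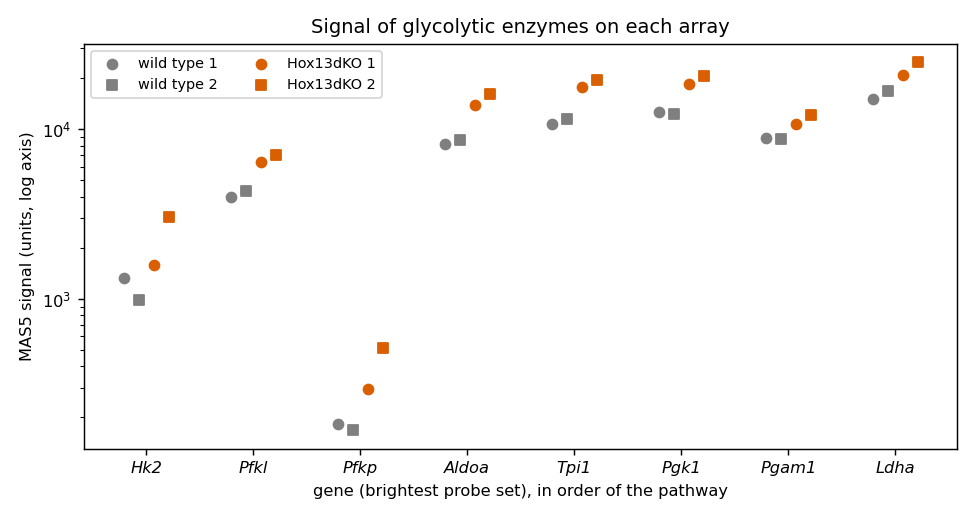
MAS5 signal in units (log axis) of the brightest probe set of each of 8 glycolytic enzymes, in pathway order, with 1 point per array: grey for wild type, orange for Hox13dKO, circles for replicate 1 and squares for replicate 2. The orange points lie above the grey ones for each gene, with the widest gaps between the Hox13dKO arrays for Hk2 and Pfkp.

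The promoters of the enzymes were searched for the core of the HIF binding sequence, because all measured members differed in one direction. Windows of 300 bases, from 250 before to 50 after the annotated start of a gene, came from RefSeq on GRCm38.p6. The letters ACGTG and GCGTG were searched on both strands, and a CACGTG, which is also the E-box read by MYC and other basic helix-loop-helix factors, holds ACGTG on both strands and so counts as 2 matches. Of the 8 measured genes, which have 11 windows in all, 7 genes and 9 windows held a match. The exceptions were Tpi1, with no match in its window, and 1 of the windows of Aldoa. The other 2 windows of Aldoa overlap and hold the same ACGTG, so 1 site counts for 2 windows. A gene with several windows can match in any of them, whereas the shares that follow are per window. Of all 32851 windows of the same length, 43.8% held a match, 19.6% held ACGTG and 20.6% held at least 2 matches. Among the measured enzymes, 6 of the 11 windows held ACGTG, and 5 of the 8 genes had a window with at least 2 matches. These shares were not matched for GC content. A match is a string of letters and does not show that a factor binds. Hk2 and Pfkp had the largest log2 differences on a single array, 1.42 and 1.55 on Hox13dKO replicate 2, and Aldoa probe sets gave the lowest p. The windows shown belong to these enzymes and to Pgk1 and Ldha, both widely studied HIF targets. Those of Pfkl, Pgam1 and Tpi1 are not shown, and Tpi1, with no match, had a limma unadjusted p of 0.000417. Also not shown are the Aldoa window without a match and an Ldha window with 2 matches. The windows shown all hold a match. They lie at chr6:82774405-82774704 (Hk2, minus strand), chr13:6648722-6649021 (Pfkp, minus), chr7:126799129-126799428 (Aldoa, minus), chrX:106186850-106187149 (Pgk1, plus) and chr7:46845554-46845853 (Ldha, plus). They are written 5′ to 3′ along the gene's strand, with each match in capitals.
Hk2: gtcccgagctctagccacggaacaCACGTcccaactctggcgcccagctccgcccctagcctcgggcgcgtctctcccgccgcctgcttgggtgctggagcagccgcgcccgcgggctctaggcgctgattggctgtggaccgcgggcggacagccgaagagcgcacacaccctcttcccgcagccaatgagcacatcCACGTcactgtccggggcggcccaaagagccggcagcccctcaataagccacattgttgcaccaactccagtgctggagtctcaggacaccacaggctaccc
Pfkp: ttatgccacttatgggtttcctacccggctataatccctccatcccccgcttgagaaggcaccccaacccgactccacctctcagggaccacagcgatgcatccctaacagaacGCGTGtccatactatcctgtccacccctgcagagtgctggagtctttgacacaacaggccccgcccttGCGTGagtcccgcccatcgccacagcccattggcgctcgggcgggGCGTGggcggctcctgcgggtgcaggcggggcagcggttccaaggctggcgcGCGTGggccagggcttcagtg
Aldoa: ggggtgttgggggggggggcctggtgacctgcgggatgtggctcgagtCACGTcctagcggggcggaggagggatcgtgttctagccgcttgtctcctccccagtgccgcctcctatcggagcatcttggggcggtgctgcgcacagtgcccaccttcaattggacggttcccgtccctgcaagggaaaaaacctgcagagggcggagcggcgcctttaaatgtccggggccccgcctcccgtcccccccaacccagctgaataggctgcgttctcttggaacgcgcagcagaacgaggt
Pgk1: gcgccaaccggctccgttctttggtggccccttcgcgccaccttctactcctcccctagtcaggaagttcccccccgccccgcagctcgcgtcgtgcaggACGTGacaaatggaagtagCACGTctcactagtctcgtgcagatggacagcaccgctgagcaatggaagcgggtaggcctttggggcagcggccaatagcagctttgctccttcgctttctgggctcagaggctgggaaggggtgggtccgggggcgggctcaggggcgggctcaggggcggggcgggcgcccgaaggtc
Ldha: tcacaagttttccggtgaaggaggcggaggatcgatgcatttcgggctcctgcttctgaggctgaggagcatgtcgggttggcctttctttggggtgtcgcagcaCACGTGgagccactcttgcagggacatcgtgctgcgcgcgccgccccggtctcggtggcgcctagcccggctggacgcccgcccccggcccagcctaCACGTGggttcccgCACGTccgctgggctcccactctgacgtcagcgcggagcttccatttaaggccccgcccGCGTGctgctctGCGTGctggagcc
Hk2 held ACGTG at 2 places and Pgk1 at 2. Pfkp held GCGTG at 4 places and no ACGTG, and Aldoa a single ACGTG. Ldha had 7 matches, of which 4 come from its CACGTG sequences.

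By brightest probe set the upper steps, which trap and split glucose, differed by 0.70 to 1.15 and the lower steps by 0.37 to 0.64. This order was not tested and depends on the probe set: averaged over probe sets, Pgk1 of the lower steps differed by 0.74, beside 0.73 for Pfkl and 0.70 each for Tpi1 and Aldoa. Hk2 encodes a hexokinase that phosphorylates glucose as it enters the cell. Its signals were 1575 and 3044 units in Hox13dKO replicates 1 and 2 and 1326 and 982 in wild type replicates 1 and 2. The groups did not overlap, but Hox13dKO replicate 1 lay closer to wild type than to replicate 2. The group values were 2309 ± 1039 against 1154 ± 244 units (SD, n = 2 each), with a log2 difference of 0.94 ± 0.30 (SE; limma adjusted p = 0.540). Set against both wild-type arrays, replicate 1 alone differed by 0.46 and replicate 2 alone by 1.42.

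Phosphofructokinase controls entry into the pathway, and 2 of its genes were on the list, Pfkl and Pfkp, named for the liver and platelet forms. Pfkl read 6373 and 7036 units in Hox13dKO and 3956 and 4291 in wild type, so the arrays of each group lay close together and the groups apart. Its log2 difference was 0.70 ± 0.13 (SE; limma adjusted p = 0.127), which is 1.63-fold. The second Pfkl probe set differed by 0.83 ± 0.13 and a dim further one, in which replicate 1 lay between the wild-type arrays, by 0.68 ± 0.53. Pfkp read 294 and 512 units in Hox13dKO and 182 and 168 in wild type. Its log2 difference, 1.15 ± 0.32 (adjusted p = 0.408), was the highest of the list, at 0.75 on replicate 1 and 1.55 on replicate 2. The dimmer Pfkp probe sets differed by 0.77 ± 0.43 and 0.43 ± 0.60, also with both Hox13dKO arrays above both wild-type arrays. The third phosphofructokinase gene, Pfkm of muscle, was not a member; it read 1442 and 1513 units against 1240 and 1498, and its groups differed by 0.12 ± 0.16.

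Aldolase splits the 6-carbon sugar, and triose phosphate isomerase interconverts the products. Aldoa, the main aldolase of embryonic tissue and muscle, read 13936 and 16014 units in Hox13dKO and 8183 and 8634 in wild type. Its log2 difference of 0.83 ± 0.13 (SE; 1.78-fold) missed the threshold (limma adjusted p = 0.0763). By 2 of its other probe sets it passed, at 0.94 ± 0.13 and 0.95 ± 0.13 (adjusted p = 0.0434 for both), and these were the only 2 of the 20 probe sets of the list to do so. The second brightest differed by 0.86 ± 0.14. The fifth gave another picture: it read 1780.4 and 2032 units against 1665 and 2489, a difference of -0.10 ± 0.20, with the groups overlapping. All 5 Aldoa probe sets carry the suffix _x_at, which marks probes that may bind other sequences too. Tpi1 read 17663 and 19589 units in Hox13dKO and 10764 and 11461 in wild type, a log2 difference of 0.74 ± 0.13 (adjusted p = 0.101), and its other probe sets differed by 0.63 ± 0.13 and 0.73 ± 0.14. For Tpi1, the gaps between groups were thus several times the gaps within them.

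Between the isomerase and the kinase of the lower pathway stands Gapdh, which reduces NAD+ and is often used as a reference gene. It was measured by control probe sets of the array, which were left out of the test. The probe set from the middle of the transcript read 26868 and 35265 units in Hox13dKO and 26295 and 31890.1 in wild type. Replicate 1 differed from the wild-type mean by -0.11 on the log2 scale and replicate 2 by 0.28, and the groups overlapped. By the 5′ and 3′ control probe sets the replicates differed by -0.17 and 0.22, and by -0.09 and 0.32. Gapdh signals were thus split by replicate number more than by genotype, unlike those of its neighbours Tpi1 and Pgk1.

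The lower steps make ATP and lactate. Pgk1, the first ATP-producing kinase of the pathway, read 18400.4 and 20631 units in Hox13dKO and 12655 and 12348 in wild type. Its log2 difference was 0.64 ± 0.13 (SE; limma adjusted p = 0.162), 1.56-fold, and the other Pgk1 probe sets differed by 0.49 ± 0.12 and 1.10 ± 0.21. The last of these rested partly on a low wild type replicate 2 (5881 units, against 9127 in replicate 1). Pgam1, which moves the phosphate group within phosphoglycerate, had the smallest difference, 0.37 ± 0.13 (adjusted p = 0.615). It read 10774 and 12106 units against 8906 and 8753, so that even here the groups did not overlap. Ldha, the subunit of lactate dehydrogenase that favours lactate production, read 20919 and 24711 units in Hox13dKO and 15080 and 16792 in wild type, a difference of 0.51 ± 0.14 (adjusted p = 0.402). Its partner subunit Ldhb, named after its values were seen, differed by 0.23 ± 0.14. Sequences very like Aldoa, Tpi1, Pgk1, Pgam1 and Ldha occur in the mouse genome as pseudogenes, and probes that read such copies would not be told apart here.

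**Figure D2:**
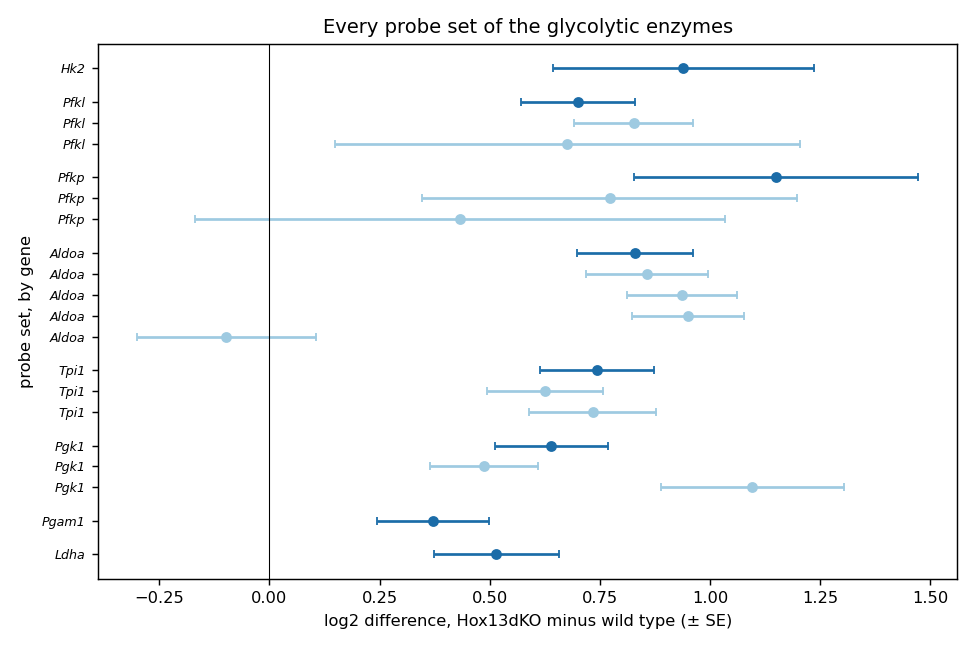
Log2 difference, Hox13dKO minus wild type, with its SE from limma (2 arrays per group), for each of the 20 probe sets by gene; dark points are the brightest probe set of a gene. Of the 20, 19 lie to the right of 0, and the exception is an Aldoa probe set at -0.10.

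Among all 20 probe sets, 18 had both Hox13dKO arrays above both wild-type arrays, against 16.3% of all probe sets tested, and 2 overlapped. In limma 16 were higher at an unadjusted p under 0.05, against 3.80% of all probe sets, and the median difference was 0.74. Probe sets of 1 gene measure the same transcripts and are not independent. Several calls turned on the scaling, on the probe sets in the fit or on 1 array. After quantile normalization Aldoa, Tpi1 and Pgk1 passed, where 65 of all 27022 probe sets were called. After median centring Aldoa and Tpi1 passed, where 214 were called. With 1 probe set per gene in the fit, Pfkl, Aldoa and Tpi1 passed, where 95 of 13072 were called. Without wild type replicate 2 the same 3 enzymes passed, in a fit that called 525 of all 27022 probe sets, and without wild type replicate 1 Hk2 alone did, where 306 were called, against 56 with all arrays.

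Taken singly, each Hox13dKO array lay above both wild-type arrays for 8 of 8 enzymes. Over all probe sets tested, replicate 1 did so in 28.5% and replicate 2 in 34.6%. The median difference of the enzymes from the wild-type mean was 0.59 for replicate 1 (range 0.29 to 0.75) and 0.80 for replicate 2 (range 0.46 to 1.55), against medians of -0.02 and 0.02 over all probe sets. In limma fits of 1 Hox13dKO array against both wild-type arrays, the lone array is assumed to vary like the wild-type ones. By that fit 0 enzymes passed with either array, under a rule that called 0.0037% of probe sets as higher for replicate 1 and 0.0407% for replicate 2. At an unadjusted p under 0.05, 4 enzymes were higher for replicate 1 (Pfkl, Aldoa, Tpi1 and Pgk1), against 2.37% of all probe sets, and 8 for replicate 2, against 2.51%.

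Replicate 2 read higher than replicate 1 for each of the 8 enzymes, and for all 20 of their probe sets, where 54.3% of all probe sets did so. The gap was 0.24 or less on the log2 scale for 6 enzymes, Pfkl, Aldoa, Tpi1, Pgk1, Pgam1 and Ldha. It was 0.95 for Hk2 and 0.80 for Pfkp, whose group means thus rest on replicate 2 more than those of the other members. The wild-type arrays differed by 0.02 to 0.43 in size, replicate 2 being the higher for 4 of the 8, with the largest gap for Hk2.

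**Figure D3:**
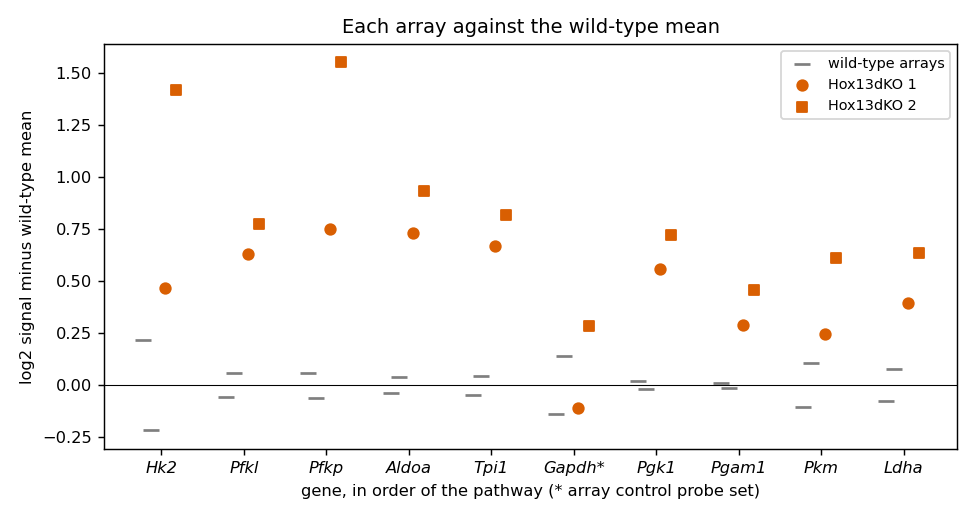
Log2 signal of each array minus the wild-type mean, in pathway order, for the 8 enzymes and for Pkm and Gapdh (middle control probe set): grey dashes are the 2 wild-type arrays, orange circles Hox13dKO replicate 1 and squares replicate 2. Gapdh is the gene whose circle lies below 0, at -0.11; the squares of Hk2 (1.42) and Pfkp (1.55) stand far above their circles.

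The remaining enzymes of the pathway, from a separate list of 15 likewise chosen with earlier results of these data known, differed less. Of its 10 genes tested, 0 passed in limma and the median difference was 0.23. At an unadjusted p under 0.05, 2 were higher, against 3.80% of all probe sets. Pkm, whose pyruvate kinase makes pyruvate and ATP, read 14905 and 19158 units in Hox13dKO and 11673 and 13525 in wild type (0.43 ± 0.16 SE, adjusted p = 0.684). Hk1, the hexokinase of most tissues, read 974 and 1027 units against 786 and 792 (0.34 ± 0.16). Aldoc, the aldolase of brain, read 213 and 339 against 130.4 and 193 (0.76 ± 0.36), and Eno3, the enolase of muscle, 1033 and 788 against 716 and 514 (0.57 ± 0.23). In these 4 genes, named for the lowest p of the list, both Hox13dKO arrays were the higher. That held for 5 of the 10 tested, against 16.3% of all probe sets. Adpgk, named after its values were seen, was lower on both (-0.17). For Hk1 the arrays of a group lay close together, at gaps of 0.08 and 0.01 on the log2 scale.

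Among carriers that bring glucose in and lactate out, Slc2a1, Slc2a3, Slc16a3 and Bsg read highest on Hox13dKO replicate 2. Slc2a3, named after its values were seen, read 5980 and 10144 units in Hox13dKO and 7314 and 6543 in wild type. Its replicate 1 thus lay below both wild-type arrays, the groups overlapped and the difference was 0.17 ± 0.23 (SE). Slc2a1, the main glucose transporter of embryonic cells, read 4297 and 10226 units in Hox13dKO and 3104 and 3026 in wild type. Its log2 difference was 1.11 ± 0.34 (SE; limma adjusted p = 0.493), at 0.49 on replicate 1 and 1.74 on replicate 2. Slc16a3, a lactate exporter, read 424 and 919 units against 277 and 391, with 0.37 and 1.48 for the single arrays. Bsg, the chaperone of lactate carriers, differed by 0.23 ± 0.14, and Slc16a7, a carrier of pyruvate and lactate, by -0.53 ± 0.69 with overlapping groups. Of the 7 carrier genes 0 passed, and their median was 0.17.

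Regulators of flux were mixed. Pdk1, a kinase that limits the use of pyruvate in mitochondria by inactivating pyruvate dehydrogenase, read 1953 and 2052 units in Hox13dKO and 1265 and 946 in wild type. Its difference of 0.87 ± 0.18 (SE; limma adjusted p = 0.162) was alike on the single arrays, 0.84 and 0.91, and another Pdk1 probe set passed (1.37 ± 0.19, adjusted p = 0.0457). Pfkfb3, which makes the activator of phosphofructokinase, read 257 and 658 units against 232 and 142, at 0.50 on replicate 1 and 1.86 on replicate 2. Pdk3, another kinase of pyruvate dehydrogenase, differed by 0.26 ± 0.16, and Pdp1, the phosphatase that opposes these kinases, read 243 and 204 units against 307 and 314 (-0.48 ± 0.26). By brightest probe set 0 of 10 regulators passed, with a median of 0.23.

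The routes that lead away from glycolysis had medians near 0. Genes of the pyruvate dehydrogenase complex and pyruvate import had a median of -0.02 over 6 tested, from -0.12 to 0.12. Pdha1, its catalytic subunit, read 3061 and 3030.5 units against 3368 and 3232. Genes of the pentose phosphate pathway, which makes NADPH and ribose from glucose, also had a median of -0.02 over 6 tested. Tkt, the transketolase that links it to glycolysis, read 20550.4 and 24737 units against 20825 and 21409, and Rpia, an isomerase of its ribose branch, differed by -0.26 ± 0.15 (SE). In these lists 0 genes passed in limma and 0 had an unadjusted p under 0.05.

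Targets of HIF outside glycolysis were set beside the enzymes. Of 16 tested, 1 passed in limma, Bnip3, a mitochondrial protein of hypoxic cells, and 11 were higher at an unadjusted p under 0.05. Over all probe sets tested, 0.115% passed as higher and 3.80% were higher at that unadjusted p. Bnip3 read 3851 and 6493 units in Hox13dKO and 1672 and 1442 in wild type, a log2 difference of 1.69 ± 0.23 (SE; adjusted p = 0.0461). P4ha1, a prolyl hydroxylase of collagen, read 1283 and 1644 units against 644 and 660.4 (1.16 ± 0.18, adjusted p = 0.0719), and Fam162a differed by 0.54 ± 0.14. Ankrd37 read 499.6 and 839 units against 281 and 245 (1.30 ± 0.28). The median of the list was 0.37 for replicate 1 and 1.29 for replicate 2, beside 0.59 and 0.80 for the glycolytic enzymes. Replicate 1 lay above both wild-type arrays for 13 of the 16 targets and replicate 2 for 16, against 28.5% and 34.6% of all probe sets tested. The targets with the widest gap, named after their values were seen, were Ndrg1, at 0.33 and 2.84 on the single arrays, and Adm, the vasodilator adrenomedullin, at 0.79 and 2.99. Transcripts of the HIF subunits and oxygen sensors themselves had a median of 0.02 over 7 genes, with 0 past the threshold. Hif1a, whose protein is controlled mainly by its breakdown, read 5805 and 6016 units in Hox13dKO and 6543 and 5886 in wild type, and Epas1 differed by 0.47 ± 0.25. The part of oxygen supply in these differences was not tested.

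**Figure D4:**
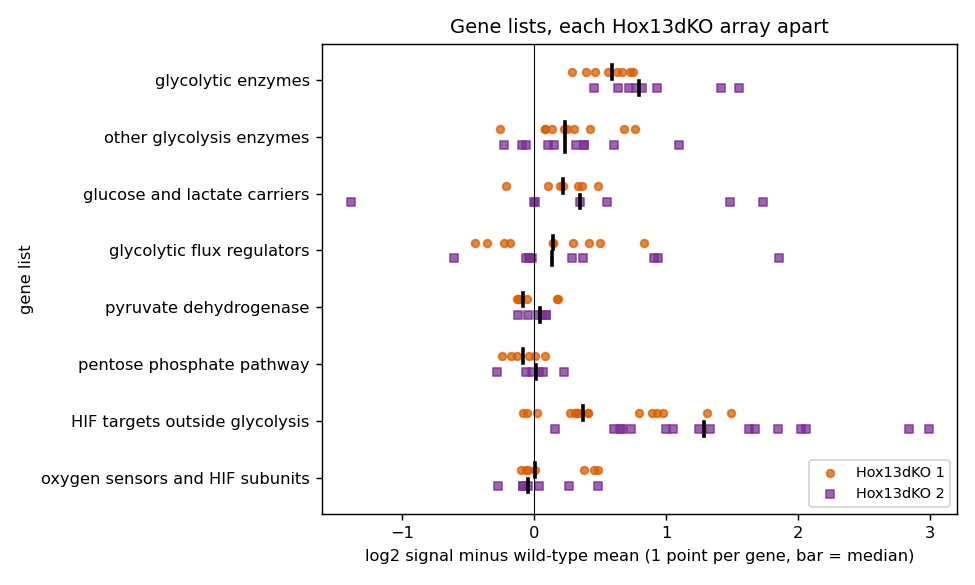
Log2 signal of each Hox13dKO array minus the wild-type mean, with 1 point per gene (brightest probe set) and a bar at the median, for the 8 glycolytic enzymes and 7 other lists; circles are replicate 1 and squares replicate 2. The enzymes lie to the right of 0 on both arrays, and the HIF targets outside glycolysis shift from a median of 0.37 on replicate 1 to 1.29 on replicate 2.

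Markers of other cell types in the limb bud were set beside the enzymes. Over all probe sets tested, 16.3% were higher on both Hox13dKO arrays than on either wild-type array. Muscle markers were higher on both Hox13dKO arrays for 6 of 8 tested, and their summed signal was 1802 and 3988 units in Hox13dKO against 546 and 543 in wild type. Actc1 was the only one past the threshold (limma adjusted p = 0.0182), and Myog on 1 wild-type array and Pax3 on 1 Hox13dKO array lay at the floor. Of the glycolytic forms typical of muscle, Eno3 had non-overlapping groups, and Pfkm and Pgam2 had overlapping ones. Red cell markers were higher on both Hox13dKO arrays for 3 of 5, with sums of 94191 and 107740 units against 76292 and 99307. Endothelial markers were so for 3 of 8 (3541 and 4518 against 2969 and 3339), macrophage markers for 3 of 7 (1765 and 1821 against 1237 and 1343, C1qa at the floor on 1 wild-type array) and epithelial markers for 3 of 9 (8154 and 10707 against 8643 and 7816). The higher epithelial markers were Fgf8 (0.83), Krt5 (0.53) and Trp63 (0.25). Another 2 were lower on both Hox13dKO arrays, the keratin genes Krt8 (-0.61) and Krt18 (-0.18), and 4 of the 9 had negative differences. The higher red cell markers were Alas2 (1.13), Slc4a1 (0.87) and Hbb-bh1 (0.33), with 0 of 5 negative, and their sum rests mainly on globin genes. The higher macrophage markers were C1qa (2.02), Mrc1 (1.30) and C1qb (0.50), with 2 of 7 negative. Except for Actc1, none of these markers passed. The part of these cell types in the enzyme values was not tested.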

How the data were processed

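RNA of 4 samples was hybridised to 1 Affymetrix array each. The deposited values are intensity per probe set on a linear scale, made by the authors with MAS5 per the submitters' processing notes (version not given in the sources used here); their 2% trimmed mean was 500.003 on each array. Detection calls were not used here, so no probe set is shown to be above background. Of 45101 probe sets, 34958 had 1 gene symbol, 932 several and 9211 none. Signals were floored at 14.1 units (20th percentile) and log2 was taken. Non-control probe sets with a geometric mean of at least 39.6 units (40th percentile), 27022 in all, were tested with limma 3.58.1 in R 4.3.3 (eBayes with trend, two-sided, Benjamini-Hochberg over all probe sets, threshold 0.05). All 20 probe sets of the enzymes passed this filter, with 0 at the floor. No array depth exists; 2 arrays per group limit the precision.

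A gene is given by its brightest probe set. Members and lists were chosen with earlier results of these data known. Named genes are the members, list genes past the threshold, up to 4 per list with the lowest p, and the 8 genes most like the members; others are named after their values were seen. Alternatives covered scaling, floor, filter, variance model, block, probe set choice and left-out arrays. The fit was tested on simulated data.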

Additional observations from a re-analysis of the deposited data

How the results depend on the processing

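All measured enzymes kept a positive difference under each alternative that could give a value, and 0 reversed. Their median stayed between 0.70 and 0.76 except with an array left out, where it ran from 0.59 (without Hox13dKO replicate 2) to 0.80 (without Hox13dKO replicate 1). The count of enzymes past the limma threshold, 0 of 8, was 3 after quantile normalization, 2 after median centring, 3 with 1 probe set per gene in the fit, 1 if any probe set may stand for a gene, and 0 to 3 with an array left out. It was 0 with no filter and without intensity trend, where 7 and 5 of the 8 had an unadjusted p under 0.05. In those limma fits 3159 of 45037 and 1696 of 27022 probe sets had such a p, in either direction. Leaving out cross-hybridising probe sets removed Aldoa. Over its alternatives, the adjusted p of Aldoa ran from 0.000312 to 0.628 and that of Tpi1 from 0.000370 to 0.675.

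Probe sets past the threshold numbered 56, and 214 after median centring, 0 with no filter (3159 at an unadjusted p under 0.05), 1 without trend, 95 with 1 probe set per gene, and 11 to 525 with an array left out. After quantile normalization 65 passed. The causes were not tested. With the replicate block, 418 probe sets and 5 enzymes (Pfkl, Aldoa, Tpi1, Pgk1 and Ldha) passed. The deviations of same-numbered arrays correlated with r = 0.20 across probe sets, and the titles do not say that the numbers pair samples.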

Other observations

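The 13072 genes were also ranked by how close their profile over the 4 arrays, each centred on its own mean log2 signal, came to the mean profile of the 8 enzymes. The measure was the root mean square distance on the log2 scale, and with 4 arrays it describes likeness in size and shape only. The closest were Zfp423, a zinc finger factor of mesenchyme (distance 0.025), and Rcsd1 (0.029), followed by Edn3, an endothelin (0.041), Orai2, a calcium channel subunit (0.043), Icam2, an adhesion molecule of endothelium (0.045), Gbe1 (0.046), Gal3st2 (0.046) and Apoe, a lipid carrier (0.046). Gbe1, the branching enzyme of glycogen synthesis, read 423 and 526 units in Hox13dKO and 299 and 301 in wild type, a log2 difference of 0.65 ± 0.23 (SE; limma adjusted p = 0.629). Zfp423 read 953 and 1182 units against 664 and 637 (0.71 ± 0.18, adjusted p = 0.317). The enzymes themselves lay 0.079 (Aldoa) to 0.28 (Hk2) from their mean profile.

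Of 7 genes of gluconeogenesis, the reverse route, 4 passed the filter on low signals, with a median difference of -0.04 and 0 past the threshold or at an unadjusted p under 0.05. Pcx, which makes oxaloacetate from pyruvate, differed by 0.17, and Fbp1, the phosphatase that opposes phosphofructokinase, by -0.59, with overlapping groups.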
